A study of Danio rerio with 8 samples.

Results

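The genes described here are those of the interferon response in zebrafish, together with the parp14-type genes. They were chosen by symbol: 32 listed genes, plus every symbol that begins with parp14, ifit or trim25, where a number added to a symbol (_1, _2) was ignored. The rule found 61 of the 53709 rows in each count table. Rows that differ only by an added number are called copies here, and after summing copies the 61 rows make 47 of 37685 symbols. Of the 32 listed genes 30 have a row, and irf2 and crfb5 are not analysed here. A further 17 symbols came in by their first letters: 5 parp14-type genes, 10 symbols beginning with ifit (8 numbered ifit genes, ifitm1 and ifitm5), and trim25 and trim25l.

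The libraries are bulk RNA-seq of tcf21:nEGFP-positive cells (Tcf21:nGFP in the sample titles), labelled epicardial, sorted from heart ventricles at 70 days after fertilization. Of 8 libraries, 4 come from fish with the cxcr4aum20 mutation, labelled as having lost coronary vessels, and 4 from wild type. Every library, wild type included, carries the tcf21:nEGFP transgene, in which the tcf21 promoter marks the cells that were sorted. Whether each library is 1 fish or a pool is not stated in the labels, so the p-values rest on the spread from library to library alone, and part of that spread may be technical.

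Interferons are cytokines that cells release when sensors of foreign nucleic acid are triggered. They bind paired receptor chains, called crfb in fish, whose kinases Jak1 and Tyk2 phosphorylate STAT transcription factors. These factors join Irf9 in the nucleus and switch on a set of antiviral genes, among them isg15, mx, rsad2, ifit and several PARP enzymes that attach ADP-ribose to proteins. Socs proteins and Usp18 then shut the signal down.

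Libraries held 18891079 to 25513003 counts in cxcr4a mutants and 19584695 to 28471786 in wild type, and every pair of libraries within a group differed beyond sampling noise (chi-square per degree of freedom at least 70.3). The mutated gene cxcr4a, a chemokine receptor, averaged 10.099 ± 5.28 CPM in mutants, against 4.22 ± 5.04 CPM in wild type (SD, n = 4 each; edgeR log2 fold change 1.26 ± 0.85 SE, adjusted p = 0.744). What the um20 allele removes is not stated in the labels, so this value does not check them. Levels are given in CPM, a gene's count relative to the library total, here scaled by TMM factors. Of 11 epicardial markers 10 had a row, and their summed level was 1355 to 2314 CPM in mutants, against 1281 to 2008 CPM in wild type. Among these, upk3b was at 0 counts in all 8 libraries and aldh1a2 stayed under 1 CPM.

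Of the 47 symbols, 37 passed the filter on low counts and were tested. Before summing, 38 of 61 rows passed. Among the 10 that did not pass, crfb1, ifitm5 and trim25l had 0 counts in all 8 libraries, and the other 7 (crfb2, ifit14, ifit15, ifit16, irf1a, parp14rs2.1 and stat2) reached at most 1.19 CPM in any library. With 3 counts as the floor, 0 counts in the whole group allow a level of up to 0.0337 CPM in mutants, against 0.0316 CPM in wild type, for counting error only.

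One gene of the set was called, parp14rs4, which was lower in mutants. A call is an adjusted p under 0.05 in edgeR's quasi-likelihood test, adjusted over all symbols tested, and 0.0481% of the 16631 symbols tested were called (0.0361% lower in mutants). In the fit of rows as deposited, parp14rs4 was again the only called row of the set, against 0.35% of 18002 rows tested (0.211% lower in mutants). With copies summed, parp14rs4 was also the only member whose groups did not overlap, against 6.3% of all symbols (2.82% lower in mutants). The next smallest edgeR adjusted p among summed members was 0.472. Among rows as deposited it was 0.0680, for the copy parp12b_1, whose groups did not overlap either and which is described below. The classical interferon-induced genes and their regulators did not pass: isg15, the mx genes, rsad2, the ifit genes, irf7 and irf9 all had overlapping groups.

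Among the 37 tested members, 26 had a positive and 11 a negative log2 fold change (mutant over wild type), which is 70.3% positive, against 50.7% of all symbols. Of the 26, 13 shared their lowest 3 libraries (mutant 3, wild type 3 and wild type 4, described below), so they are not separate observations. The members' median log2 fold change was 0.40, against 0.01 over all symbols. Cardiomyocyte and mural markers leaned the same way. A positive log2 fold change was found for 10 of 10 tested cardiomyocyte markers (median 1.17, 5 with an unadjusted p under 0.05). It was found for 9 of 10 mural markers (median 0.38, 2 with an unadjusted p under 0.05). The other marker lists leaned the opposite way. Positive were 4 of 13 leukocyte (median -0.25), 2 of 9 endothelial (-0.50), 2 of 9 erythrocyte and thrombocyte (-0.14) and 3 of 8 epicardial markers (-0.11). The part of these cell types in the members' values was not tested. At an unadjusted p under 0.05, 4 members were higher in mutants (ifitm1, irf3, socs3a and socs3b), where 5.09% of all symbols were, and 2 were lower (parp14rs4 and parp142.2), where 3.55% were. In bulk RNA, a change in the number of cells of a type and a change in RNA per cell cannot be told apart.

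**Figure D1:**
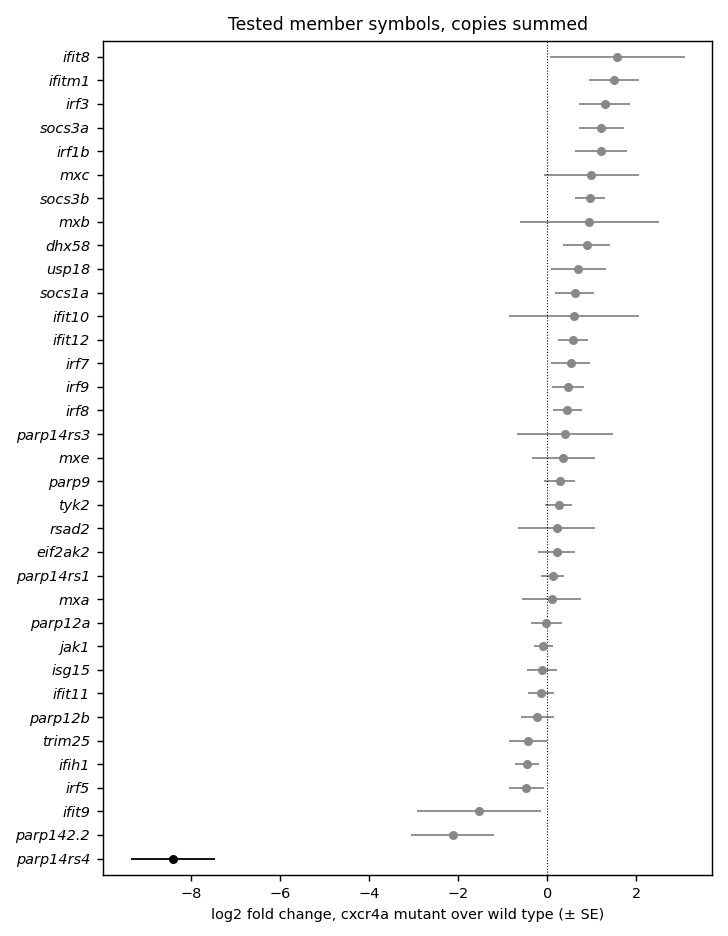
Log2 fold change, cxcr4a mutant over wild type (x axis, points with bars of ± 1 SE), of tested members with copies summed, from 4 libraries a group. The called gene parp14rs4 is drawn in black at -8.41, and the others, in grey, lie between -2.12 and 1.57.

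The receptor genes crfb1 and crfb2 were barely counted. Both lie on several rows, and of the 10 members on several rows 4 were tested, against 33 of 37 on 1 row. The sources used here do not say how reads shared by copies were counted. Low counts of crfb1 and crfb2 therefore do not show that the genes are silent. In zebrafish crfb1 and crfb2 each pair with crfb5 to form the receptors of the 2 groups of ifnphi cytokines. The counts of crfb1 were 0 in every library, and crfb2 had 1 count in all, in wild type 3. The kinases that sit on these receptors were counted in every library and did not separate the groups. For jak1 the level was 27.5, 30.3, 23.1 and 25.0 CPM in mutants, against 28.2, 24.7, 33.3 and 26.0 CPM in wild type (log2 fold change -0.08 ± 0.21 SE, edgeR adjusted p = 0.954). For tyk2 it was 32.4, 38.6, 20.3 and 36.8 CPM in mutants, against 19.3, 19.7, 33.2 and 34.7 CPM in wild type (0.26 ± 0.30 SE, edgeR adjusted p = 0.868). Mutant 3 was the lowest mutant library for both kinases, and wild type 3 was the highest and second highest of the wild-type libraries.

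Among the transcription factors of the pathway, stat2 had 44 counts over all mutants and 24 over all wild-type libraries and was not tested. It too lies on several rows. The interferon regulatory factors overlapped between groups. For irf9, the DNA-binding partner of STAT factors in this pathway, the level was 72.8, 188, 63.3 and 69.9 CPM in mutants, against 67.3, 79.7, 61.0 and 76.0 CPM in wild type (log2 fold change 0.47 ± 0.35 SE, edgeR adjusted p = 0.774). Mutant 2 stood alone, and without it the log2 fold change was -0.05. For irf7, which amplifies the production of interferon, the level was 33.1, 30.0, 20.7 and 58.6 CPM in mutants, against 41.3, 28.8, 16.9 and 12.0 CPM in wild type (0.52 ± 0.44 SE, edgeR adjusted p = 0.793). Mutant 4 was the highest library, while mutants 1 to 3 lay within the wild-type range.

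For irf3, which acts directly downstream of the nucleic acid sensors, the level was 6.19, 4.18, 2.73 and 8.69 CPM in mutants, against 3.48, 2.88, 1.50 and 1.09 CPM in wild type (log2 fold change 1.29 ± 0.57 SE, unadjusted p = 0.0487, edgeR adjusted p = 0.575). Its mutant 3 lay below 2 wild-type libraries and the other 3 mutants lay above all of them. The remaining tested factors were irf1b (1.20 ± 0.58 SE), a target and mediator of interferon gamma signalling, irf8 (0.45 ± 0.32 SE), a factor of macrophage development, and irf5 (-0.47 ± 0.39 SE), none with an unadjusted p under 0.05.

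The sensors of double-stranded RNA among the members were ifih1, dhx58 and eif2ak2. Their log2 fold changes were -0.45 ± 0.27 SE for ifih1 (the sensor known as Mda5), 0.89 ± 0.52 SE for dhx58 (known as Lgp2), and 0.21 ± 0.41 SE for eif2ak2, the kinase that halts translation. The ubiquitin ligase trim25, which in mammals acts on the RNA sensor Rig-I, averaged 5.34 ± 2.18 CPM in mutants, against 7.17 ± 1.99 CPM in wild type (SD, n = 4 each; log2 fold change -0.43 ± 0.43 SE, edgeR adjusted p = 0.839). Its reads lay on the copy trim25_1, with 478 counts over all mutants and 690 over all wild-type libraries, against at most 1 count in either group on the other 2 rows.

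The effectors did not separate the groups either. The ubiquitin-like isg15 was at 25.3, 40.5, 15.8 and 30.1 CPM in mutants, against 41.9, 33.5, 19.5 and 25.8 CPM in wild type (log2 fold change -0.11 ± 0.34 SE, edgeR adjusted p = 0.965). Its range in mutants nearly matched its range in wild type. The antiviral GTPase gene mxa was at 14.1, 9.74, 2.78 and 21.9 CPM in mutants, against 6.79, 25.5, 7.24 and 5.80 CPM in wild type (0.10 ± 0.66 SE, edgeR adjusted p = 0.985). The antiviral enzyme rsad2 was at 7.24, 5.68, 1.08 and 17.1 CPM in mutants, against 17.7, 4.01, 1.97 and 3.18 CPM in wild type (0.21 ± 0.86 SE, edgeR adjusted p = 0.973). For mxa and rsad2 alike, a single wild-type library was high and close to the highest mutant library.

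The other mx genes had log2 fold changes of 0.95 ± 1.56 SE (mxb), 0.99 ± 1.06 SE (mxc) and 0.36 ± 0.71 SE (mxe). The numbered ifit genes, whose products in mammals bind foreign RNA, summed to 49.1, 35.0, 40.0 and 57.7 CPM in mutants, against 40.7, 57.6, 30.8 and 29.3 CPM in wild type. Their means were 45.4 ± 10.03 CPM in mutants, against 39.6 ± 13.0 CPM in wild type (SD, n = 4 each), a difference smaller than the spread. Of the 8 numbered ifit genes 5 were tested, with log2 fold changes from -1.53 ± 1.39 SE (ifit9) to 1.57 ± 1.51 SE (ifit8).

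The membrane protein gene ifitm1, whose mammalian relatives restrict the entry of viruses into cells, had the largest positive log2 fold change of any member with an unadjusted p under 0.05. It was at 473, 348, 89.3 and 206 CPM in mutants, against 134, 148, 34.0 and 80.3 CPM in wild type (log2 fold change 1.49 ± 0.56 SE, unadjusted p = 0.0242, edgeR adjusted p = 0.491). Mutants 1, 2 and 4 lay above all wild-type libraries, and mutant 3 lay within the wild-type range.

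Of the 5 parp14-type genes 4 were tested and 1 was called. In mammals Parp14 is an interferon-induced enzyme that attaches single ADP-ribose units and also carries macrodomains that bind them. The called gene parp14rs4 had 0, 0, 0 and 2 counts in mutants and 235, 259, 223 and 114 counts in wild type, or 0, 0, 0 and 0.0698 CPM in mutants, against 12.4, 11.3, 6.67 and 5.42 CPM in wild type. No wild-type library came near the mutant values. The scaled ratio of wild type over mutant, from 2 counts in mutants, was 388, with a 95% counting interval of 107 to 3207 (log2 fold change -8.41 ± 0.95 SE, edgeR adjusted p = 0.0239). With rows as deposited the adjusted p was 0.00985, and nearly all of its reads were on the plain row, with 3 counts on the copy parp14rs4_1, all in wild type 3.

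The call of parp14rs4 in the summed edgeR fit rested on a small margin. Its log2 fold change was -10.65 without mutant 4, -8.59 to -8.07 without each other library in turn and -7.94 with limma voom. The edgeR adjusted p was 0.0762 without mutant 1, 0.0913 without mutant 3, 0.106 without wild type 1, 0.0880 without wild type 2, 0.0953 without wild type 3 and 0.0548 without wild type 4, and limma voom gave 0.0929. With copies summed, edgeR kept the call without mutant 2, without mutant 4, and with the other scalings and low-count filters. DESeq2 called parp14rs4 as well (adjusted p = 1.7e-11), where it called 2.13% of all symbols. The replicate block, given below, lost the call. With rows as deposited the call held in all 8 fits that left out 1 library (edgeR adjusted p from 0.0224 to 0.0481) and in limma voom (0.0312).

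The other parp14-type genes were not called, and their groups overlapped. The gene parp14rs1 was at 58.4, 85.7, 37.8 and 56.8 CPM in mutants, against 66.7, 52.2, 46.1 and 54.5 CPM in wild type (log2 fold change 0.12 ± 0.26 SE, edgeR adjusted p = 0.944). The gene parp14rs3 was at 0, 15.5, 6.89 and 11.2 CPM in mutants, against 5.48, 11.3, 4.97 and 3.66 CPM in wild type (0.40 ± 1.08 SE, edgeR adjusted p = 0.956). Mutant 1 had 0 counts of parp14rs3 while the other 3 mutants lay at or above most wild-type libraries, and limma voom, which gave a log2 fold change of -1.23, turned the direction round.

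The gene parp142.2 was at 0.571, 0.174, 0.304 and 1.19 CPM in mutants, against 2.58, 5.58, 1.23 and 0.475 CPM in wild type (log2 fold change -2.12 ± 0.93 SE, unadjusted p = 0.0472, edgeR adjusted p = 0.567). Only wild type 4 lay among the mutant values. Without wild type 2, the highest library, the log2 fold change was -1.34, and without mutant 4 it was -2.79. The last gene, parp14rs2.1, had 6 counts over all mutants and 9 over all wild-type libraries.

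Summed over the 5 genes, parp14-type reads were at 59.0, 101, 45.1 and 69.4 CPM in mutants, against 87.2, 80.7, 59.0 and 64.0 CPM in wild type. The means were 68.7 ± 24.0 CPM in mutants, against 72.7 ± 13.4 CPM in wild type (SD, n = 4 each), so the family total differed by less than its spread. Within it, parp14rs4 made up 0, 0, 0 and 0.101% of parp14-type reads in mutants and 14.2, 13.98, 11.3 and 8.46% in wild type. The share of parp14rs1 was 99.0, 84.6, 83.9 and 81.7% in mutants and 76.6, 64.7, 78.1 and 85.1% in wild type. Reads of near-identical genes can be placed on either, and the sources used here do not say how such reads were counted. How alike the parp14-type genes are in sequence was not tested, nor was any part of shared reads in these shares.

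**Figure D2:**
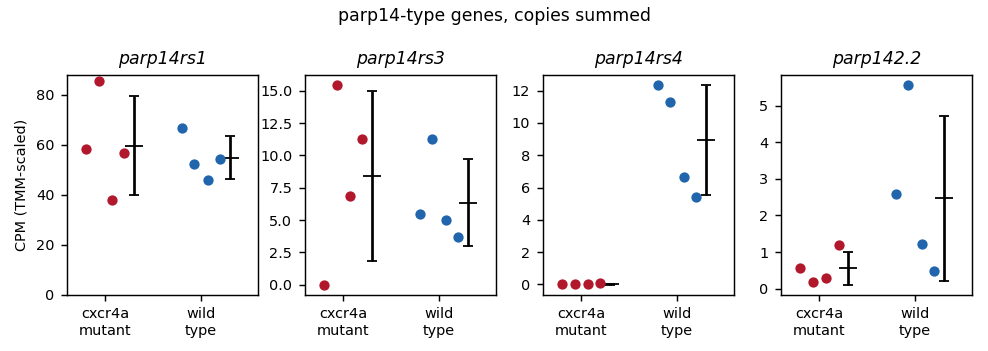
Level in CPM (y axis, a separate scale for each gene) of 4 parp14-type genes, with a point for each of 4 cxcr4a mutant and 4 wild-type libraries and the mean ± SD beside them. The mutant points of parp14rs4 lie at 0 to 0.0698 CPM and its wild-type points at 5.42 to 12.4 CPM, while the groups overlap for parp14rs1, parp14rs3 and parp142.2.

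The nearest 5 genes on each side of parp14rs4 and of parp142.2 were read as well. The order is that of RefSeq genes in the GRCz12tu assembly, which is not the build of the counts. Genes without a symbol in the counts were skipped, so those read need not be directly adjacent. The genes described below were chosen after their values were seen, none was called by edgeR, and their identifiers carry no gene name. The other tested genes read had overlapping groups. Their log2 fold changes were 0.42 (kcnip1b), -0.40 (npm1a), -0.51 (cxcl8b.3), 0.64 (cxcl8b.1) and 0.89 (si:ch211-163c2.2), with edgeR adjusted p from 0.748 to 0.921. The remaining genes read did not pass the filter on low counts. The gene before parp14rs4, LOC100332428, was at 71.8, 77.9, 50.5 and 83.4 CPM in mutants, against 25.0, 36.6, 24.6 and 18.3 CPM in wild type. Its groups did not overlap, in the direction opposite to parp14rs4 (log2 fold change 1.44 ± 0.27 SE, edgeR adjusted p = 0.138, DESeq2 adjusted p = 0.000276).

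The gene after parp14rs4, LOC110438850, was at 27.9, 30.1, 6.16 and 34.3 CPM in mutants, against 10.7, 1.70, 0.269 and 0.523 CPM in wild type (log2 fold change 2.90 ± 1.06 SE, edgeR adjusted p = 0.484). Mutant 3 and wild type 1 were the libraries that overlapped, and without wild type 1 the log2 fold change was 4.88. The gene before parp142.2, LOC101886695, was at 0.429, 0.116, 0 and 2.09 CPM in mutants, against 8.85, 25.6, 13.8 and 17.7 CPM in wild type (-4.59 ± 1.11 SE, edgeR adjusted p = 0.250, DESeq2 adjusted p = 0.000458), with no overlap. Without mutant 4 its log2 fold change was -6.46. In the same assembly, 4 of the 47 symbols (jak1, stat2, trim25 and trim25l) are on the chromosome of cxcr4a, and no parp14-type gene is.

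Of the other PARP members, parp9, which in mammals works with the ubiquitin ligase Dtx3l, was at 33.7, 50.5, 15.0 and 27.9 CPM in mutants, against 25.5, 32.2, 23.0 and 24.1 CPM in wild type (log2 fold change 0.28 ± 0.34 SE, edgeR adjusted p = 0.878). The wild-type libraries lay close together and within the mutant range. For parp12a, whose mammalian counterpart is an interferon-induced enzyme that adds single ADP-ribose units, the mean was 25.7 ± 10.7 CPM in mutants, against 26.1 ± 0.86 CPM in wild type (SD, n = 4 each; -0.02 ± 0.35 SE).

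For parp12b the copies differed from their sum. The copy parp12b_1 had 14, 27, 64 and 31 counts in mutants and 0 in every wild-type library. Pooled and scaled, the mutant counts were 48.4-fold a floor of 3 counts over the wild-type group, without allowance for spread between libraries. The copy was not called by edgeR (adjusted p = 0.0680) and was called by DESeq2 (adjusted p = 5.9e-06), where 4.26% of rows were called. The plain row parp12b was at 6.19, 5.70, 6.80 and 5.89 CPM in mutants, against 11.8, 11.3, 8.35 and 4.65 CPM in wild type (log2 fold change -0.55 ± 0.37 SE). Summed, parp12b averaged 7.68 ± 1.26 CPM in mutants, against 8.97 ± 3.25 CPM in wild type (SD, n = 4 each; -0.22 ± 0.37 SE, edgeR adjusted p = 0.920). The sum therefore overlapped between groups while 1 copy was counted in every mutant library and in no wild-type library. What separates numbered copies in the annotation is not stated in the sources used here, so a single copy cannot be tied to a gene or transcript of its own.

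**Figure D3:**
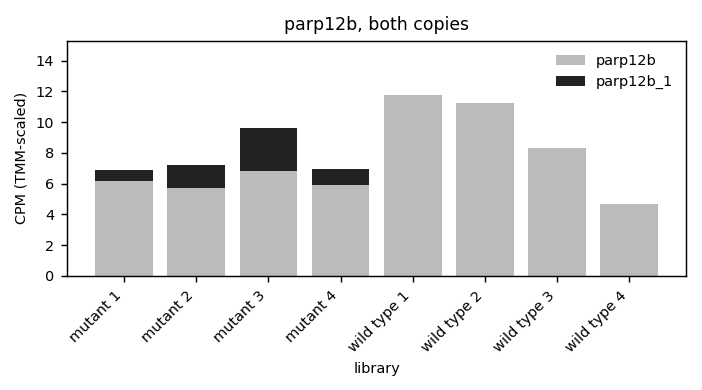
Level of parp12b in CPM (y axis) in each of 4 cxcr4a mutant and 4 wild-type libraries, as a stacked bar of the plain row (grey) and the copy parp12b_1 (black). The black part is present in the 4 mutant libraries, at 0.672 to 2.79 CPM, and is 0 in the 4 wild-type libraries.

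Among the brakes of the pathway, both socs3 genes had an unadjusted p under 0.05 and neither was called. For socs3a, an inhibitor of Jak kinases that is induced by several cytokines, the level was 1432, 1401, 295 and 417 CPM in mutants, against 479, 286, 423 and 341 CPM in wild type (log2 fold change 1.21 ± 0.50 SE, unadjusted p = 0.0363, edgeR adjusted p = 0.533). Mutants 1 and 2 stood high, and mutants 3 and 4 lay within the wild-type range. For socs3b the level was 253, 178, 85.2 and 130 CPM in mutants, against 101, 71.1, 99.8 and 60.5 CPM in wild type (0.96 ± 0.34 SE, unadjusted p = 0.0187, edgeR adjusted p = 0.472). Here 3 mutant libraries lay above all of wild type, and mutant 3 did not.

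The related brake socs1a had a log2 fold change of 0.62 ± 0.44 SE. For usp18, which removes Isg15 from proteins and blocks the receptor, the level was 5.95, 13.3, 3.25 and 5.24 CPM in mutants, against 5.37, 1.13, 4.37 and 6.23 CPM in wild type (0.70 ± 0.61 SE, edgeR adjusted p = 0.808). Apart from mutant 2 on the high side and wild type 2 on the low side, its libraries lay between 3.25 and 6.23 CPM.

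Pathway genes outside the set were read from 5 lists with 116 genes, of which 94 had a row and 78 were tested. None was called by edgeR, and DESeq2 called 3 (parp6b, rigi and socs1b), where it called 2.13% of all symbols. An unadjusted p under 0.05 was found for 6 of the 78, 5 of them higher in mutants. Of all symbols, 5.09% were higher and 3.55% lower at that threshold, and these shares also stand behind the counts of single lists below. The median log2 fold change over the 78 was 0.06, with 45 positive, where 50.7% of all symbols were positive. Of the interferon ligands and receptors, 12 of 15 had a row, 6 were tested and none had an unadjusted p under 0.05. The interferon ifnphi1 was at 1.29, 10.7, 1.08 and 4.12 CPM in mutants, against 2.11, 1.74, 2.18 and 3.99 CPM in wild type, while ifnphi2, ifnphi4, ifng1r and crfb12 had 0 counts in all 8 libraries. Other receptor chains of this list were counted in every library: crfb4 averaged 38.2 ± 12.2 CPM in mutants, against 36.6 ± 4.99 CPM in wild type, and il10rb averaged 101.9 ± 30.0 CPM in mutants, against 72.3 ± 17.7 CPM in wild type (SD, n = 4 each). The highest ifnphi1 value was in mutant 2, the library that was also highest for irf9, irf1b, parp9 and usp18. Other members peaked elsewhere: isg15 and rsad2 in wild type 1, mxa in wild type 2, and irf7 and mxb in mutant 4.

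Among nucleic acid sensing genes, 19 were tested, and 2 had an unadjusted p under 0.05. The RNA sensor rigi was at 1.095, 2.73, 1.95 and 4.15 CPM in mutants, against 0.316, 0.392, 0.389 and 0 CPM in wild type (log2 fold change 3.14 ± 1.00 SE, edgeR adjusted p = 0.401, DESeq2 adjusted p = 0.0120), with no overlap at these low levels. The kinase tbk1, which phosphorylates Irf3, averaged 72.0 ± 12.7 CPM in mutants, against 50.2 ± 8.06 CPM in wild type (SD, n = 4 each; 0.52 ± 0.22 SE, edgeR adjusted p = 0.538). Of 18 other interferon-induced effectors tested, none had an unadjusted p under 0.05, and 13 had a positive log2 fold change.

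Among 12 other PARP and ADP-ribose genes tested, 3 had an unadjusted p under 0.05, with parp6b and tiparp higher and parp1 lower in mutants. The gene parp6b had 146 counts over all mutants and 0 in wild type (edgeR adjusted p = 0.140, DESeq2 adjusted p = 1.7e-05). Pooled and scaled, its mutant counts were 52.2-fold a floor of 3 counts over the wild-type group, without allowance for spread between libraries. The gene tiparp, a target of the aryl hydrocarbon receptor in mammals, averaged 85.2 ± 38.8 CPM in mutants, against 34.4 ± 19.5 CPM in wild type (SD, n = 4 each; log2 fold change 1.31 ± 0.45 SE, edgeR adjusted p = 0.455). The DNA repair enzyme parp1 averaged 41.8 ± 14.4 CPM in mutants, against 88.5 ± 46.5 CPM in wild type (SD, n = 4 each; -1.08 ± 0.45 SE, edgeR adjusted p = 0.534). Of 23 other JAK-STAT genes tested, socs1b alone had an unadjusted p under 0.05, at 8.19, 17.5, 2.56 and 6.67 CPM in mutants, against 2.58, 0.915, 0.359 and 0.523 CPM in wild type (3.00 ± 0.80 SE, edgeR adjusted p = 0.287, DESeq2 adjusted p = 0.00633). Its log2 fold change was 2.40 without mutant 2 and 3.84 without wild type 1.

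Across the 8 libraries the members varied in a way that crossed the groups. For 13 of the 37 tested members (35.1%) the lowest 3 libraries were mutant 3, wild type 3 and wild type 4, against 1.94% of all symbols. This pattern was noticed in the data and is a description with no test. All 13 had a positive log2 fold change, from 0.21 (rsad2) to 1.49 (ifitm1), and more of these low libraries are wild type than mutant. Among the 13 were dhx58, ifit10, ifitm1, irf1b, irf3, irf7, mxb, mxe, parp9, rsad2 and socs1a, with dhx58 the 1 sensor of double-stranded RNA among them. For ifit10 this rested on a near tie, with wild type 3 at 0.9275 CPM and mutant 2 at 0.9279 CPM. With the scaling of rows as deposited the order of these libraries was reversed (0.921 and 0.912 CPM). With DESeq2 size factors the count was again 13, and with library size only it was 9.

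In the lists outside the set, the same lowest 3 libraries were found for 4 of 18 other interferon-induced effectors (cmpk2, gbp1, pkz and adar), and for 1 of 23 other JAK-STAT genes (stat6). They were found for none of 19 nucleic acid sensing genes, none of 6 interferon ligands and receptors, none of 12 other PARP and ADP-ribose genes, and no tested gene of the 6 lists of cell type markers. The widest example was mxb, at 4.14, 13.0, 0.130 and 19.3 CPM in mutants, against 4.11, 14.8, 0.150 and 0 CPM in wild type.

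Markers of other cell types varied over the same libraries. Those of erythrocytes and thrombocytes, of which 11 of 11 had a row, summed to 3140, 3928, 7717 and 5278 CPM in mutants, against 907, 713, 8002 and 12488 CPM in wild type. The sum was highest in mutant 3, wild type 3 and wild type 4 and was carried by haemoglobin genes. Also highest in these libraries were slc4a1a (583, 555 and 522 CPM) and itga2b (21.1, 29.4 and 31.1 CPM). Others of the list were ordered differently: hbaa2 and hbba2 were higher in mutant 4 than in wild type 3, and gp1bb was higher in mutant 1 than in mutant 3. Further, thbs1b was highest in mutants 1 and 2 (321 and 228 CPM). The gene mpl was lower in mutant 3 (2.60 CPM) than in mutant 4 and wild type 1 (3.04 and 3.69 CPM). Within that list gata1a was at 0 in all libraries and alas2 stayed under 1 CPM. Leukocyte markers, 17 of 19 with a row, summed to 1602, 718, 2749 and 4759 CPM in mutants, against 2605, 1444, 3979 and 2993 CPM in wild type, with lck at 0 and coro1a and mpeg1.1 under 1 CPM. Cardiomyocyte markers, 11 of 12 with a row and none at 0 throughout, summed to 370, 586, 2042 and 1192 CPM in mutants, against 604, 436, 287 and 330 CPM in wild type, with mutants 3 and 4 highest. Mural markers, 10 of 10 with a row and none at 0 throughout, summed to 1662, 10658, 1005 and 939 CPM in mutants, against 1052, 616, 4486 and 5657 CPM in wild type. Endothelial markers, 10 of 12 with a row and plvapb at 0, summed to 93.5, 108, 187 and 168 CPM in mutants, against 247, 204, 206 and 72.9 CPM in wild type. The part of these cell types in the pattern was not tested. Mutant 2, with the highest irf9, irf1b and parp9 levels of the 8 libraries, had the lowest leukocyte sum and the highest mural and epicardial sums. Its epicardial sum was carried by gata5 (1226 CPM, against 288 to 505 CPM in the other libraries). While wt1b was also highest in mutant 2 (187 CPM), tcf21 (79.7 CPM) and tbx18 (698 CPM) lay within the range of the other libraries. Of its mural sum, acta2 made up 6182 CPM. Also highest in mutant 2 were myh11a, rgs5a and tagln, while pdgfrb was lowest there (345 CPM).

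**Figure D4:**
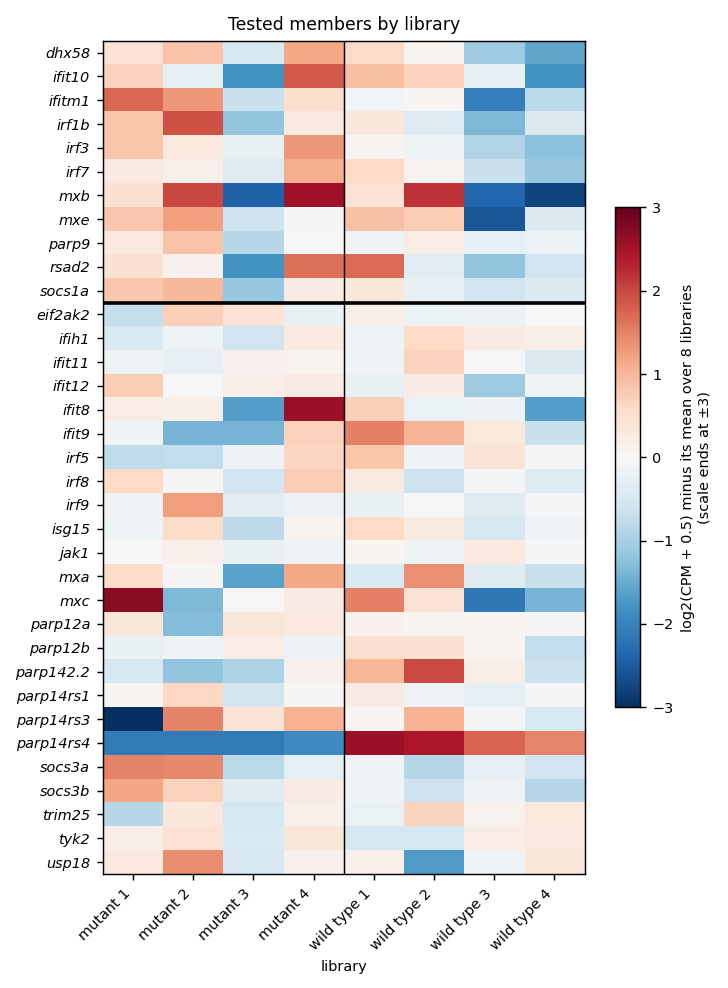
Levels of tested members (rows) in each library (columns, 4 cxcr4a mutant left of 4 wild type), as log2(CPM + 0.5) minus the gene's mean over 8 libraries, with colours ending at ± 3. The genes above the black line are among the 13 lowest in mutant 3, wild type 3 and wild type 4, where they are blue, and parp14rs4 below the line is blue in all mutant columns and red in all wild-type columns.

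The levels of isg15 and of the summed parp14-type genes followed each other over the libraries. On log2(CPM + 0.5), isg15 had the highest Pearson correlation with the parp14-type sum of all tested symbols outside that family (r = 0.958, Spearman's rho = 0.952, n = 8 libraries), given as a description since the points share libraries. The next were mgaa (r = 0.950), phf12a (0.949), twist1a (0.940) and tom1l2 (0.936). These are the highest values picked from all tested symbols over only 8 libraries, so the ranks do not show shared control. The family's main gene parp14rs1 had r = 0.886 with the sum, of which it is itself 64.7 to 99.0%, so a high value was built in. Outside the family, parp9 had r = 0.801. Both isg15 and the sum were lowest in mutant 3 and high in mutant 2 and wild type 1, so neither ordered the libraries by genotype.

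**Figure D5:**
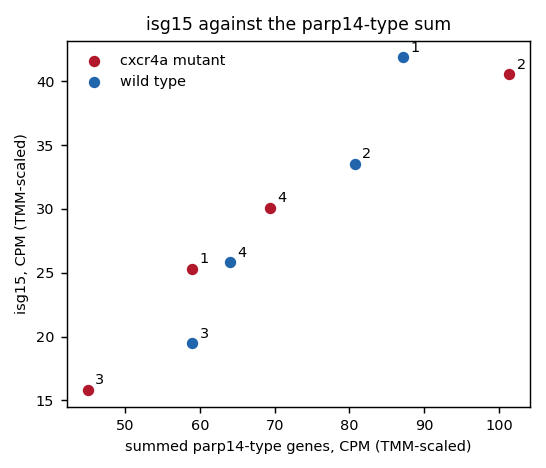
Level of isg15 (y axis, CPM) against the summed parp14-type genes (x axis, CPM) in 4 cxcr4a mutant (red) and 4 wild-type (blue) libraries, numbered by replicate. Points of both groups alternate along the plot, from mutant 3 at 15.8 CPM of isg15 to wild type 1 at 41.9 CPM.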

How the data were processed

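The authors deposited raw read counts, 1 whole number per symbol and library. Per the labels' protocols, RNA of the sorted cells went through SMART-Seq v4 and Nextera XT, which keep no strand, so a gene and its antisense or overlapping partner cannot be told apart. The submitters' processing notes name GRCz11, cutadapt 5.2, STAR 2.7.11a and HTSeq. No settings for these tools, and no annotation release, are given in the sources used here.

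Counts were fitted on all rows as deposited, and again on all symbols with copies summed, in R 4.3.3 by the 2-sided quasi-likelihood F-test of edgeR 4.0.16, after filterByExpr and with TMM factors, and p-values were adjusted by Benjamini-Hochberg over everything tested. Values are from the summed fit unless rows are named. Fold changes are log2, mutant over wild type. DESeq2 1.42.0, limma voom 3.58.1, other scalings and filters, a replicate block and leaving out each library were alternatives. The procedure was run on data simulated from its own fitted model, which cannot check whether that model fits these libraries.

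The members and lists were chosen with earlier results of these data known. Values of each library are given for members with an unadjusted p under 0.05 or groups that do not overlap, for a panel of signalling genes, and for copies that differ from their sum. Of protein-coding symbols, 65.9% of those on 1 row and 44.1% of those on several rows passed the filter. Some items of the set are counted in the totals and are not reported here by name.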

Additional observations from a re-analysis of the deposited data

Results flagged for a closer look

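In each group of 4 libraries, the highest or lowest library was compared with its nearest neighbour, against Dixon's 95% critical value. For normally distributed values chance passes it in about 1 of 20 groups, a rate that need not hold for low or skewed counts. Of 80 such checks, 7 passed. In cxcr4a mutants, ifit8 was at 8.90 CPM in mutant 4, where the other mutants had 0 to 1.33 CPM. In mutant 2, irf9 was at 188 CPM (other mutants 63.3 to 72.8) and parp12a was at 9.63 CPM (other mutants 30.5 to 31.7). In mutant 1, mxc was at 35.8 CPM (other mutants 1.68 to 6.07). The value of parp14rs4 in mutant 4, 0.0698 CPM, rests on 2 counts, where the other mutants had 0, so any count there would have passed. In wild type, mxa was at 25.5 CPM in wild type 2 (other wild-type libraries 5.80 to 7.24) and rsad2 was at 17.7 CPM in wild type 1 (other wild-type libraries 1.97 to 4.01).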

How the results depend on the processing

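Over all results and alternatives, 431 values kept their direction and side of the threshold, 9 lost the call, 6 gained it and 17 changed sign. Called member rows numbered 2 with DESeq2 and 0 with the replicate block, against 1, and stayed at 1 without any single library. Called member symbols numbered 0 with limma voom and 0 with the replicate block, against 1, and 0 to 1 without each library in turn. DESeq2 called 3 other pathway symbols, against 0. Under the replicate block the adjusted p of parp14rs4 was 0.260 with copies summed and 0.139 with rows as deposited.

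Fold changes under the alternatives were followed for a panel of members only, which left out parp12a, eif2ak2 and mxb, for instance. Among the members followed, the sign changed for 8. The log2 fold change of parp14rs3 was -1.23 with limma voom and -0.15 with the replicate block, against 0.40. Without single libraries the ranges that crossed 0 were -0.35 to 0.086 (isg15), -0.35 to 0.86 (mxa), -0.52 to 1.33 (rsad2), -0.052 to 0.64 (irf9), -0.16 to 0.0083 (jak1), -0.042 to 0.51 (parp9), -0.11 to 0.29 (parp14rs1) and -0.078 to 0.82 (parp14rs3). The cause was not tested.

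Over all genes, called rows numbered 63, against 901 with DESeq2, 2 with the replicate block and 16 to 43 without single libraries. Called symbols numbered 8, against 458 with DESeq2, 0 with limma voom, 0 with the replicate block and 0 to 9 without single libraries. Whether equal replicate numbers pair the libraries is not stated in the labels. Same-numbered mutant and wild-type libraries had deviations correlated at 0.09, 0.06, 0.06 and -0.09, and 2 of 4 mutants correlated best with their own number. These values do not settle whether the libraries are paired. Values of stat2, irf1a and parp14rs2.1 rest on few counts, and why they are low was not tested.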
